A study of Homo sapiens with 8 samples.

Results

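The NKG2D ligand genes are the 8 human genes whose protein products are bound by NKG2D: MICA, MICB, ULBP1, ULBP2, ULBP3, RAET1E, RAET1G and RAET1L. They were found by symbol and primary-assembly gene identifier among the 64253 identifiers of the count tables, and all 8 were among the 20305 genes with enough counts to be tested. NKG2D is an activating receptor of natural killer (NK) cells and of many cytotoxic T cells. Its ligands are scarce on most healthy cells and are raised on infected, damaged or transformed cells, which the receptor then helps to recognise. The ligands can also be cut from the cell surface by metalloproteases, so RNA levels alone do not give the amount at the surface.

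RNA was measured in 4 groups of 2 libraries each. HCT-8 is a 5-fluorouracil (5-FU)-sensitive human colon cancer cell line, and HCT-8/FU is a 5-FU-resistant line, both grown in unconditioned medium. CM of HCT-8 and CM of HCT-8/FU are HCT-8 cells, without a change of line, grown in medium that HCT-8 or HCT-8/FU cells had conditioned for 48 h. The labels give no 5-FU in any of these cultures and do not say whether the replicates were separate cultures, so the p-values measure only the spread between these libraries. Each line is a single line, and nothing here separates 5-FU resistance from other differences between the HCT-8 and HCT-8/FU lines.

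The libraries held 5804124 to 34881349 reads counted on genes. In 3 of them, HCT-8 replicate 1, HCT-8/FU replicate 2 and CM of HCT-8 replicate 1, 20.0% to 29.6% of records were not aligned, against 3.58% to 4.43% in the other 5, and these 3 also held the fewest counts. The level of a gene relative to its mean over libraries also varied with its GC content, by a Spearman correlation across genes of -0.49 and -0.45 in HCT-8/FU and of 0.052 and 0.21 in HCT-8. For the CM groups it was 0.37 and 0.53 with medium from HCT-8, and -0.065 and -0.062 with medium from HCT-8/FU. Of 7 colon epithelial markers, 7 were tested, and KRT8 reached 4720 to 5869 CPM (counts scaled by library size). Of 11 markers of lymphocytes and the receptor itself, 4 (CD3E, PTPRC, GZMB and GNLY) had no count in any library, and the summed level of the list was 12.1 to 17.9 CPM, nearly all of it from PRF1 at 10.3 to 16.7 CPM.

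All 8 genes lie on chromosome 6 (GRCh38, GENCODE 44). MICA (ENSG00000204520, chr6:31399784-31415315) and MICB (ENSG00000204516, chr6:31494881-31511124) lie on the plus strand in the class I region of the major histocompatibility complex and encode MHC class I-like proteins anchored by a transmembrane segment. The other 6 lie in the RAET1 cluster of the long arm and lack the third MHC-like domain. ULBP1 (ENSG00000111981, chr6:149963943-149973715) and ULBP2 (ENSG00000131015, chr6:149942014-149949235) are on the plus strand. ULBP3 (ENSG00000131019, chr6:150061053-150069121), RAET1E (ENSG00000164520, chr6:149883179-149898113), RAET1G (ENSG00000203722, chr6:149916878-149923121) and RAET1L (ENSG00000155918, chr6:150018334-150025532) are on the minus strand. Many products of this cluster are held in the membrane by a lipid anchor.

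The promoters of ULBP1 and MICB, the members called in the resistant line, and of MICA, the close relative of MICB that did not pass the test, are given here. Each holds the 250 bases before the RefSeq transcription start (GRCh38.p14), 5' to 3'. In ULBP1 the capitals mark partial cAMP response elements (TGACG) and SP1 boxes (GGGCGG), on either strand. In MICA and MICB they mark a heat shock element (GAANNTTC), an SP1 box and CCAAT boxes, on either strand.
ULBP1 promoter, chr6:149963693-149963942, plus strand: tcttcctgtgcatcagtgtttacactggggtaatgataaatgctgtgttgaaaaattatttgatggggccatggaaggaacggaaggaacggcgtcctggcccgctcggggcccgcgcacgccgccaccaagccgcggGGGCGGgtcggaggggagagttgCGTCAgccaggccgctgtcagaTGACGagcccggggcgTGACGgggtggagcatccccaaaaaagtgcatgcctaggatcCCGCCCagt
MICB promoter, chr6:31497895-31498144, plus strand: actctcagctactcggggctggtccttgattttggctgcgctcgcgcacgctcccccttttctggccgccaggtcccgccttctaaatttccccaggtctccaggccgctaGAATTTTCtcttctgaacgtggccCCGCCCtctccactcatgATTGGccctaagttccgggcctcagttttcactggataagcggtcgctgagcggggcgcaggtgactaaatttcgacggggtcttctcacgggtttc
MICA promoter, chr6:31403345-31403594, plus strand: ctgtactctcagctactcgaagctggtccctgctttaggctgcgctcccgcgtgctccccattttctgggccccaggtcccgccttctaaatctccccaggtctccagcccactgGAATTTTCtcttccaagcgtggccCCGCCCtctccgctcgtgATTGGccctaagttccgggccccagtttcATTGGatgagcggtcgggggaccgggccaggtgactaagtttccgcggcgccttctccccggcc

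ULBP1 held 3 partial cAMP response elements, which began 89, 67 and 51 bases before the start, and 2 SP1 boxes, at 112 and 9 bases. Among 35116 RefSeq promoters cut to the same 250 bases, 21.2% held TGACG and 42.6% held GGGCGG on either strand. ULBP2 also held 3 matches to TGACG, at 115, 83 and 66 bases, while the other 6 members held none in this window. MICA and MICB each held 1 heat shock element, at 135 and 139 bases, beside an SP1 box at 111 and 115 bases, and 5.78% of all promoters held that heat shock letter pattern. MICA had CCAAT boxes at 93 and 64 bases and MICB had 1 at 97 bases, a motif found in 32.0% of promoters. The promoters of MICA and MICB were identical at 210 positions of their alignment, or 82.7% of it, and the next most alike pair of members, ULBP2 and RAET1G, at 54.2%. These matches are a description of the sequence, and no binding was measured.

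ULBP2 was the most abundant ligand RNA per length of exon and RAET1E the least. Over all 8 libraries the mean level was 22.8 CPM per kilobase of exon (CPM per kb) for ULBP2, 12.4 for RAET1L, 6.99 for ULBP1, 5.32 for MICB, 5.09 for MICA, 1.81 for ULBP3, 1.43 for RAET1G and 0.257 for RAET1E. MICB and MICA exchanged places between groups, so their order does not hold beyond the spread. The ranks also depend on the division by exon length. In HCT-8 replicate 1, ULBP1 stood above ULBP2 by CPM, at 32.65 against 29.9. By CPM alone the means were 30.5 for ULBP2, 22.4 for ULBP1, 19.6 for MICA, 16.6 for RAET1L and 14.9 for MICB. In HCT-8, ULBP1 stood at 9.40 ± 1.09 CPM per kb (SD, n = 2) against 3.89 ± 0.571 for MICB, whereas in HCT-8/FU they stood at 5.17 ± 0.911 and 6.82 ± 2.01. ULBP2, RAET1L and RAET1G have near-identical stretches, which limits this order. Of the 50-base stretches of their exons, 32.6% of ULBP2, 31.5% of RAET1L and 12.0% of RAET1G occurred in another gene, mostly in each other, so reads from these genes may have been set aside as not unique or credited to the wrong gene. The share was 1.86% for MICA, 2.86% for MICB, 8.13% for ULBP1, 11.1% for ULBP3 and 14.7% for RAET1E. RAET1E shares 1050 exonic bases, 14.6% of its exons, with the protein-coding gene ENSG00000285991 on the same strand, so reads there may have been set aside. RAET1G also shares 138 exonic bases, 9.3% of its exons, with the antisense gene RAET1E-AS1, and no source used here gives the strand setting of the counting.

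**Figure D1:**
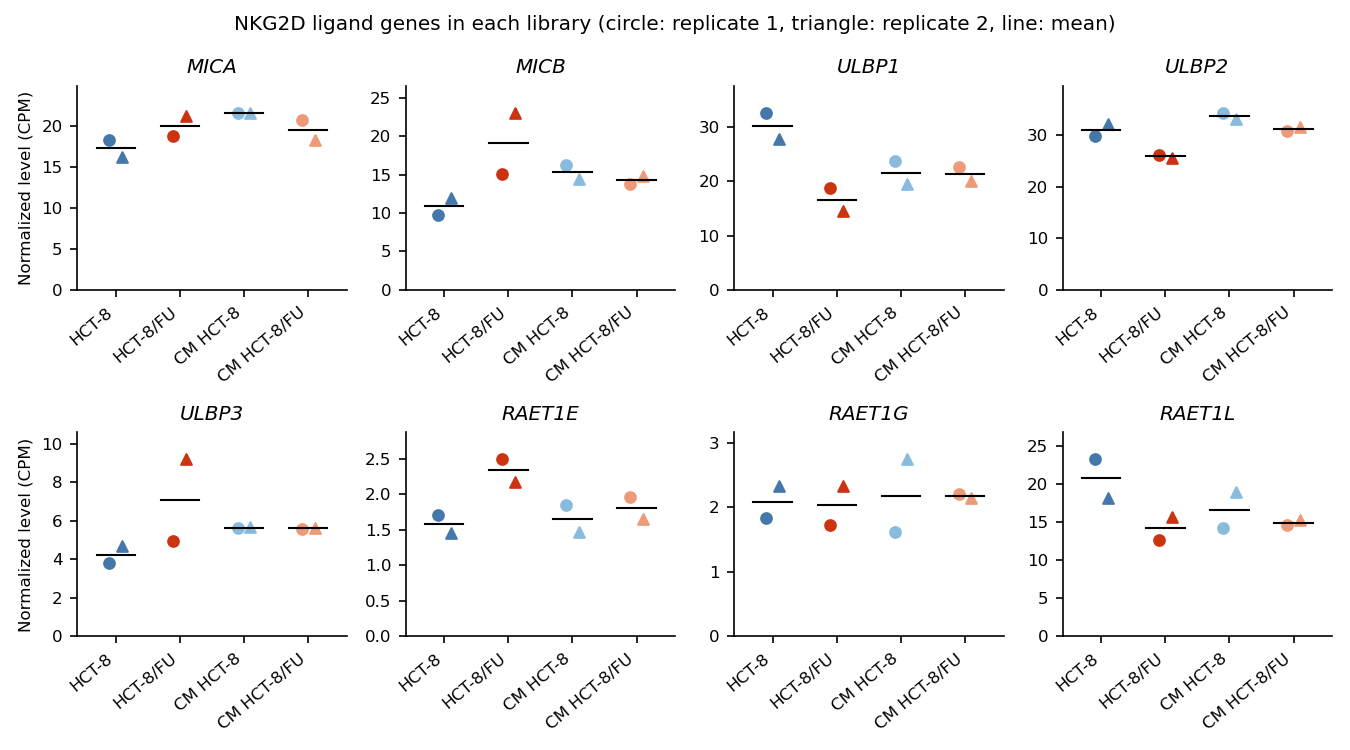
Normalized level (CPM, linear axes from 0) of each NKG2D ligand gene in the 8 libraries, with a circle for replicate 1, a triangle for replicate 2 and a line for the group mean. Both HCT-8/FU libraries lie below both HCT-8 libraries for ULBP1 and above them for MICB, while the CM groups overlap each other for both genes.

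The first comparison, between the lines, asks which genes differ in HCT-8/FU cells from HCT-8 cells. ULBP1 was lower and MICB higher in HCT-8/FU, and these were the 2 of 8 members called, where a call needs an adjusted p of at most 0.05 (from the quasi-likelihood test of edgeR, after Benjamini-Hochberg correction across every tested gene) and a log2 fold change of at least 0.58 in size. Over all tested genes, 21.3% were called in this comparison, 13.2% higher and 8.12% lower, so 2 of 8 is near the background share. The members' median size of change was 0.57 on the log2 scale, against 0.43 over all genes tested, and their median signed change was 0.019 against 0.0082.

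ULBP1, a lipid-anchored ligand of the RAET1 cluster, was at 32.65 and 27.7 CPM in HCT-8 (248 and 937 counts) and at 18.7 and 14.5 CPM in HCT-8/FU (562 and 87 counts). Its levels in the resistant line lay below both HCT-8 libraries, with no overlap. The log2 fold change was -0.79 ± 0.15 (SE), or 1.73-fold lower (adjusted p = 0.00067). Between the pair of libraries with few unaligned records the log2 ratio was -0.57, and between the pair with over 15% unaligned it was -1.17. The direction was the same within both, but the size was larger in the shallow pair. The ratio of the deep pair fell just short of 0.58 in size. Leaving out any 1 library left the log2 fold change between -1.04 and -0.68, always called. After correction for GC content and length it was -1.03 for ULBP1, whose exons have a GC content of 43.0%, and 0.83 for MICB, at 51.7%.

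MICB, a transmembrane ligand, was at 9.74 and 12.0 CPM in HCT-8 (74 and 406 counts) and at 15.1 and 23.1 CPM in HCT-8/FU (455 and 138 counts). Both HCT-8/FU libraries were above both HCT-8 libraries, and the HCT-8/FU libraries were far apart from each other. The log2 fold change was 0.70 ± 0.19 (SE), or 1.63-fold higher (adjusted p = 0.0095). This call rested on the shallow libraries: without HCT-8/FU replicate 2 it had a log2 fold change of 0.43 (adjusted p = 0.084), and without HCT-8 replicate 1 it was 0.58 (adjusted p = 0.063). Between the 2 deep libraries the log2 ratio was 0.33, and between the 2 shallow ones 1.24.

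RAET1L, also named ULBP6, was at 23.3 and 18.2 CPM in HCT-8 and at 12.7 and 15.7 CPM in HCT-8/FU, without overlap. Its log2 fold change of -0.56 ± 0.18 passed the adjusted p (0.020) and fell just short of the fold threshold. It was called in some settings, with -0.61 after correction for GC content and length and -0.79 without HCT-8 replicate 2, and its adjusted p was above 0.05 without HCT-8 replicate 1 or without HCT-8/FU replicate 1. At the adjusted p alone 3 of 8 members passed, against 36.7% of all genes.

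MICA, the partner of MICB, was at 18.3 and 16.3 CPM in HCT-8 and at 18.8 and 21.2 CPM in HCT-8/FU. The libraries did not overlap, but the groups were close, and the log2 fold change of 0.21 (95% interval -0.08 to 0.50) did not pass (adjusted p = 0.26). ULBP2, the most abundant member by its mean over the libraries, was at 29.9 and 32.3 CPM against 26.3 and 25.6 CPM. Its log2 fold change of -0.27 ± 0.10 missed the threshold (adjusted p = 0.058).

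ULBP3, which encodes another lipid-anchored ligand, was at 3.82 and 4.67 CPM in HCT-8 and at 4.95 and 9.19 CPM in HCT-8/FU. HCT-8/FU replicate 2 stood apart from the other 7 libraries, and the log2 fold change of 0.57 ± 0.28 did not pass (adjusted p = 0.13). It ran from 0.17 without HCT-8/FU replicate 2 to 1.06 without HCT-8/FU replicate 1, where it was called (adjusted p = 0.013). RAET1E was at 1.71 and 1.45 CPM against 2.49 and 2.17 CPM, from 13 to 75 counts, and its log2 fold change was 0.63 ± 0.37 (adjusted p = 0.21). RAET1G was at 1.84 and 2.34 CPM against 1.73 and 2.34 CPM, the only member of the 8 whose libraries overlapped here, and its interval, from -0.97 to 0.63, spans changes in either direction at this depth. In all, 7 of 8 members did not overlap between the groups, against 65.0% of all genes tested.

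**Figure D2:**
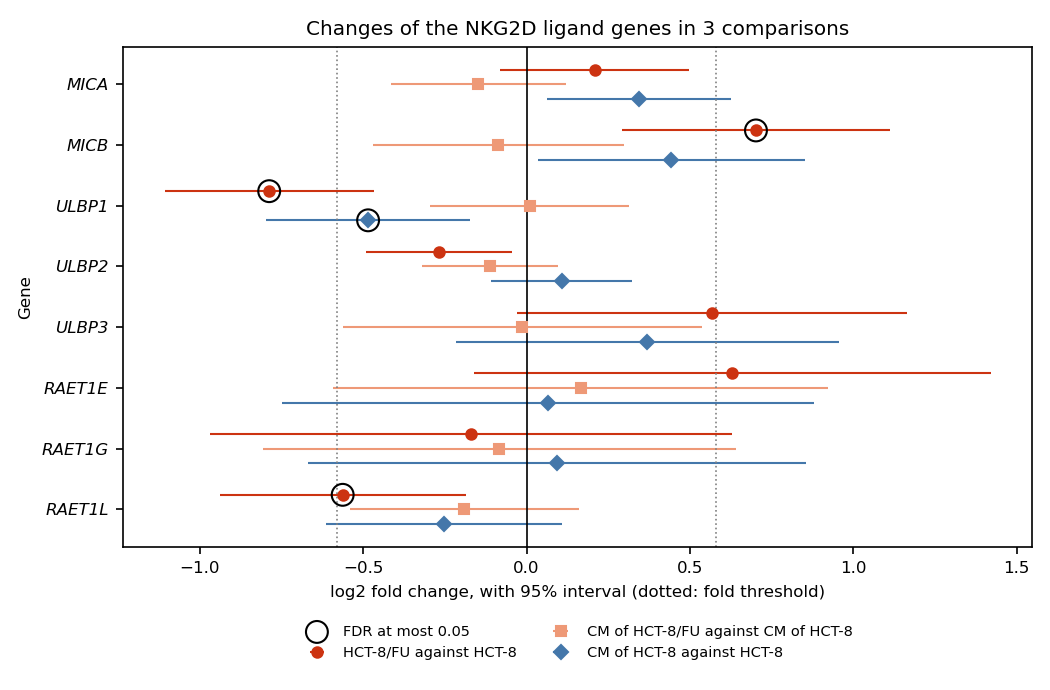
Log2 fold change of each gene (points) with its 95% interval (bars) in 3 comparisons, with black rings where the adjusted p was at most 0.05 and dotted lines at the fold threshold of 0.58 in either direction. ULBP1 (-0.79) and MICB (0.70) lie beyond the dotted lines in HCT-8/FU against HCT-8, and all 8 points of the CM of HCT-8/FU comparison lie between -0.19 and 0.17.

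The medium comparison, which sets CM of HCT-8/FU beside CM of HCT-8, asks what medium from resistant cells does to HCT-8 cells beyond medium from HCT-8 itself. None of the 8 ligand genes was called by edgeR, 0 had an unadjusted p under 0.05, and DESeq2 with 4 groups also called 0, against 9.25% of all genes tested called by edgeR. The log2 fold changes ran from -0.19 for RAET1L to 0.17 for RAET1E, and the smallest adjusted p was 0.46. ULBP1 was at 23.7 and 19.5 CPM with medium from HCT-8, and at 22.6 and 20.1 CPM with medium from HCT-8/FU. These values overlapped, and the log2 fold change was 0.0095 (95% interval -0.29 to 0.31). MICB was at 16.2 and 14.4 CPM against 13.8 and 14.8 CPM, also overlapping, with -0.09 (95% interval -0.47 to 0.30). MICA, at 21.6 and 21.6 CPM against 20.7 and 18.3 CPM, and ULBP2, at 34.4 and 33.2 CPM against 30.8 and 31.6 CPM, were the 2 of 8 members whose libraries did not overlap, against 61.4% of all genes, and their log2 fold changes were -0.15 and -0.11.

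The change of ULBP1 between the lines differed from its change between the media, by -0.80 ± 0.21 on the log2 scale (adjusted p = 0.021). It was the only one of the 8 members to pass the test of that difference, against 11.6% of all genes tested. For MICB the difference was 0.79 ± 0.26 (adjusted p = 0.069), as large in size but not past the threshold. The call for ULBP1 was lost when any of 3 libraries was left out, with adjusted p-values of 0.069 to 0.10.

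CM of HCT-8 against HCT-8 asks what the cells' own conditioned medium changes, and shares libraries with the comparisons above. No member was called, against 8.15% of all genes tested. ULBP1 passed the adjusted p alone, as did 19.4% of all genes: it was at 23.7 and 19.5 CPM in CM of HCT-8 and at 32.65 and 27.7 CPM in HCT-8, which did not overlap. Its log2 fold change was -0.48 ± 0.15 (adjusted p = 0.030), and ran from -0.69 to -0.32 when 1 library was left out. MICA and MICB were higher by 0.34 ± 0.13 and 0.44 ± 0.19 on the log2 scale with adjusted p-values of 0.085 and 0.13, which did not pass. Over the 4 groups the mean level of ULBP1 thus ran from HCT-8 at 30.2 ± 3.50 CPM (SD, n = 2) over CM of HCT-8 at 21.6 ± 2.97 and CM of HCT-8/FU at 21.4 ± 1.77 to HCT-8/FU at 16.6 ± 2.92. The neighbouring CM groups did not differ beyond their spread. MICB ran the other way, from 10.9 ± 1.60 CPM in HCT-8 over 14.3 ± 0.659 in CM of HCT-8/FU, then 15.3 ± 1.27 for CM of HCT-8, to 19.1 ± 5.62 in HCT-8/FU, where the last value had the widest spread.

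The summed level of the 8 genes and its make-up are given as values, with no test. The sum was 59.5 ± 1.88 CPM per kb in HCT-8 (SD, n = 2), 51.1 ± 4.01 in HCT-8/FU, then 59.0 ± 0.971 for CM of HCT-8 cells and 54.8 ± 0.0705 for CM of HCT-8/FU cells. The share of MICA and MICB together in that sum was 13.5% and 14.6% in the HCT-8 libraries and 21.3% and 25.5% in the HCT-8/FU libraries. In the CM libraries it lay between, at 19.6% and 18.0% for CM of HCT-8 and 18.8% and 18.3% for CM of HCT-8/FU. The ratio of MICB to ULBP1 by CPM was 0.298 and 0.433 in HCT-8 and 0.810 and 1.59 in HCT-8/FU, with the 4 CM libraries at 0.610 to 0.739. These ratios within a library do not depend on the scaling between libraries, and they describe the same changes as the tests above.

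**Figure D3:**
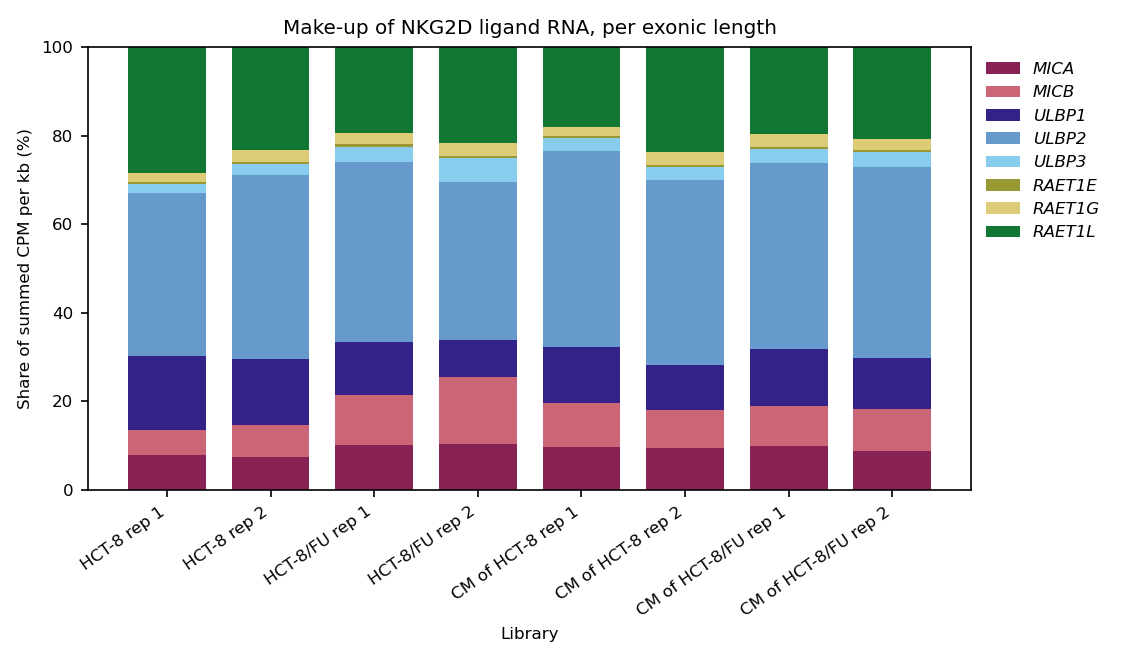
Share of each NKG2D ligand gene in the summed CPM per kb of the 8 genes (stacked bars, percent) in each library. MICA and MICB together make up 13.5% and 14.6% in HCT-8 and 21.3% and 25.5% in HCT-8/FU, and ULBP2 is the largest part in all 8 libraries.

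Shedding enzymes, regulators of the ligands and, apart from these, ligands of other NK cell receptors were described from lists. Of 6 sheddases and shedding cofactors, 5 were tested, and in HCT-8/FU 2 rose and 2 fell against HCT-8, where 13.2% of all genes tested were higher and 8.12% lower. ADAM10 and ADAM9, surface metalloproteases, had log2 fold changes of 1.22 and 0.75. ADAM17, another, had -0.88, and PDIA6, a disulphide isomerase that acts on MICA before it is cut, -0.79. After correction for GC content and length, neither ADAM10 (0.52) nor ADAM9 (0.01) was called, and ADAM17 was at -1.35. In the medium comparison the same 2 were higher, by 0.99 and 0.79, and 0 lower, against 9.25% of all genes called. With that correction neither of the 2 was called there (0.27 and 0.01). In CM of HCT-8 against HCT-8, 1 was lower, ADAM17 at -0.75, and 0 higher, against 8.15% of all genes called. The alternatives were not run for the lists in that comparison.

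Of 18 regulators of ligand transcription or RNA, HCT-8/FU had 5 higher and 3 lower, against the same 13.2% and 8.12% of all genes, and the number called ran from 6 to 9 over the alternatives. The kinases of DNA damage signalling ATR, ATM and CHEK1 had log2 fold changes of 1.48, 1.29 and 1.03, the microRNA-processing enzyme DICER1 1.60 and the cell cycle factor E2F2 0.61. Among the lower ones, the stress factors XBP1 and ATF4 had -0.91 and -0.88. After the GC and length correction ATR was at 0.71, ATM at 0.65, CHEK1 at 0.72 and DICER1 at 0.99, all smaller but still called. E2F2 was not called without HCT-8 replicate 2 or without HCT-8/FU replicate 1. HSF1, the heat shock factor, was not called at -0.49. It passed the adjusted p alone, as did 36.7% of all genes, and fell short of the fold threshold. SP1, at -0.18, did not pass. In the medium comparison ATR, DICER1 and ATM were higher, by 1.47, 1.27 and 1.20, and 0 were lower, against 9.25% of all genes called. After the GC correction ATM was not called there (0.45), and ATR and DICER1 were called at 0.61 and 0.60. In CM of HCT-8 against HCT-8, 2 were higher, E2F1 (1.11) and E2F2 (0.67), and 0 lower, against 8.15% of all genes called.

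Of 10 ligands of other NK cell receptors, 8 were tested. In HCT-8/FU 1 was called higher and 2 lower, against 13.2% and 8.12% of all genes tested. At the adjusted p alone all 8 passed, in both directions, against 36.7% of all genes, and their median log2 fold change was -0.49. In HCT-8/FU, CLEC2D, a ligand of the inhibitory receptor KLRB1, was higher by 1.84, and NECTIN1 and PVR, which is bound by the activating receptor CD226, had log2 fold changes of -1.24 and -0.70. CLEC2D was also higher in the medium comparison, by 1.73, the only one of the list called there, against 9.25% of all genes tested. After the GC correction it was called at 1.26 and 1.18. It is a low gene, at a mean of 2.69 CPM. In CM of HCT-8 against HCT-8, 1 of the list was lower, NECTIN1 at -0.64, and 0 higher, against 8.15% of all genes called. Of the 7 colon epithelial markers, KRT20, VIL1 and EPCAM were called higher in HCT-8/FU, at 1.45, 0.96 and 0.61. This was 3 of 7 higher and 0 lower, against 13.2% and 8.12% of all genes tested. EPCAM was at 0.48 without HCT-8 replicate 2, below the fold threshold. CDH1 (-0.40) and KRT18 (-0.23) passed the adjusted p alone in the other direction. None of the 7 was called in the medium comparison, against 9.25% of all genes tested. In CM of HCT-8 against HCT-8, 3 of 7 were higher and 0 lower, against 8.15% of all genes called. These were VIL1 (0.80), KRT20 (0.69) and CDX2 (0.68), so a rise of VIL1 and KRT20 was not particular to HCT-8/FU. The part of these markers in the ligand changes was not tested.

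**Figure D4:**
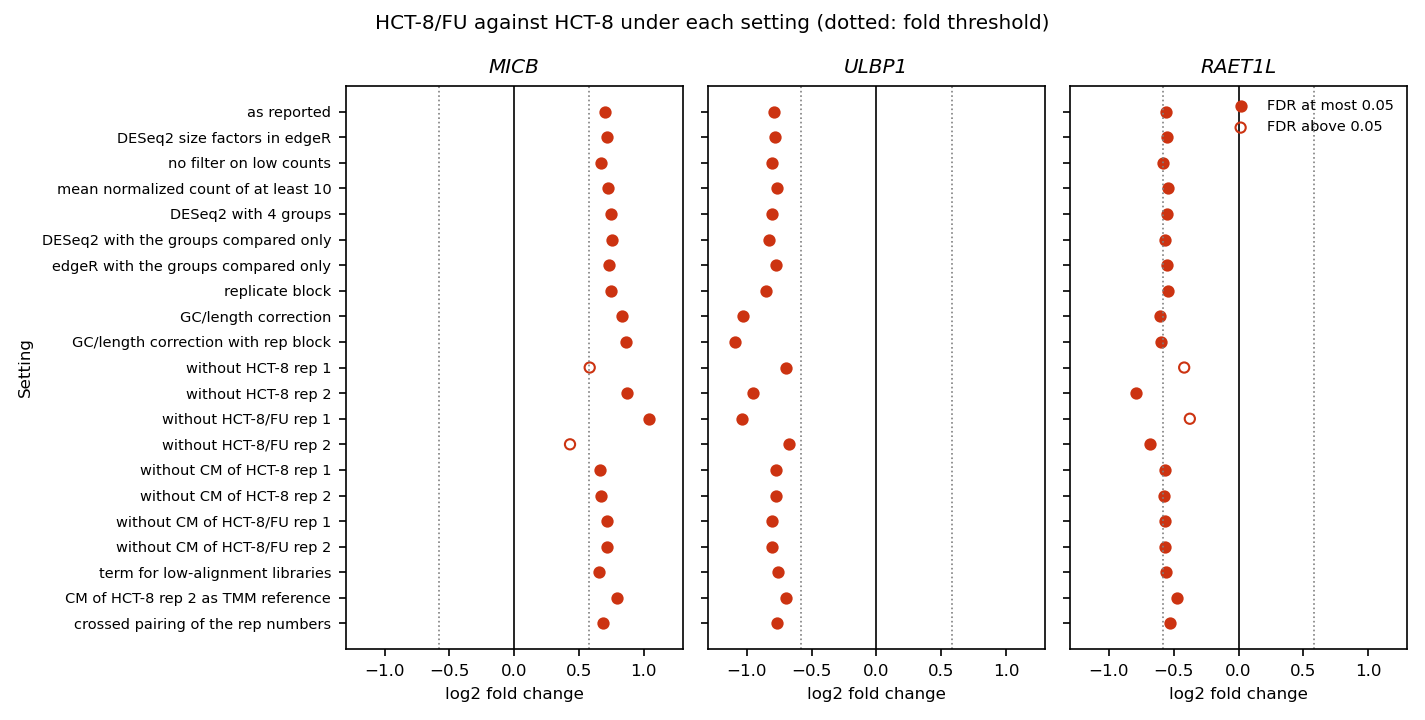
Log2 fold change of MICB, ULBP1 and RAET1L in HCT-8/FU against HCT-8 under the reported setting and each alternative (rows), with filled points where the adjusted p was at most 0.05 and dotted lines at the fold threshold of 0.58 in either direction. ULBP1 lies beyond the threshold in every row, while MICB has open points without HCT-8 replicate 1 (0.58) and without HCT-8/FU replicate 2 (0.43).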

How the data were processed

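Poly(A) RNA of 8 libraries was sequenced as paired reads. The authors mapped reads with HISAT2 on GRCh38 and used SAMtools 1.18 and HTSeq 0.11.2 to make the counts per gene that were deposited, per the labels and the study's methods. Lines of the tables that name no gene were left out of library sizes and tests. The deposited tables of fold changes and p-values are the authors' comparisons and were not used.

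The counts went into edgeR 4.0.16 (R 4.3.3): filterByExpr, TMM, 4 group means fitted to all 8 libraries, and quasi-likelihood tests with Benjamini-Hochberg adjustment over 20305 genes. CPM uses TMM library sizes. Standard errors are the log2 fold change over the square root of F. DESeq2 1.42.0 was an alternative. Gene names and exon lengths came from GENCODE 44, where 56105 of 64253 identifiers were found. The edgeR and DESeq2 fits were tested on simulated data. The members and lists were chosen with earlier results of these data known. The TMM reference, the alignment term and crossed pairing were chosen after seeing the data. Named genes are the 8 members, listed genes that were called, and the genes whose levels followed a member most closely. Some listed genes that were not called, such as HSF1, SP1, CDH1 and KRT18, are named as well. Values of 1 listed regulator are not reported here.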

Additional observations from a re-analysis of the deposited data

Results flagged for a closer look

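The change of ULBP1 differed between the line comparison and the medium comparison: its log2 fold change was -0.79 in HCT-8/FU against HCT-8 and 0.0095 in the comparison that sets CM of HCT-8/FU beside CM of HCT-8, a difference of -0.80 ± 0.21 (edgeR quasi-likelihood test, adjusted p = 0.021). It was picked out because this difference itself passed a test over all genes, as did 11.6% of them. The call was lost when any of 3 libraries was left out. For MICB the difference was as large in size, at 0.79 ± 0.26, and did not pass (same test, adjusted p = 0.069).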

How the results depend on the processing

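ULBP1 was called in HCT-8/FU in all 20 alternatives, from -1.09 to -0.68 on the log2 scale, while MICB was not called without HCT-8 replicate 1 or without HCT-8/FU replicate 2. The number of ligand genes called in HCT-8/FU against HCT-8, 2 as reported, was 1 to 3 when 1 library was left out. In CM of HCT-8 against HCT-8 it was 0 to 1, and 1 (ULBP1) at the adjusted p alone. For the difference of the comparisons, 1 as reported, it was 0 to 2, and 2 (ULBP1 and MICB) with no filter on low counts. No alternative called a member in the medium comparison, where 9.25% of all genes tested were called as reported. In the order above, the shares of all genes called as reported were 21.3%, 8.15% and 11.6%. The share under each alternative is not given here, so a changed count of members cannot be set against a changed background. Depth limits RAET1E and RAET1G most, with 13 to 79 counts a library. With 2 replicates, leaving out 1 leaves a lone library that is assumed to vary like the others.

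The deviations of same-numbered libraries had no common sign between groups (correlations from -0.181 to 0.283), so the numbers were not taken as pairs. HCT-8 and CM of HCT-8, where replicate 1 had over 15% of records not aligned, deviated together (0.283). HCT-8/FU, where that library is replicate 2, ran opposite to both (-0.181 and -0.164). With the replicate block 2 genes were called in HCT-8/FU (MICB and ULBP1), and with crossed numbers also 2.

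Changes of sign were among log2 fold changes that passed no test. In the medium comparison ULBP3 was 0.0273 with DESeq2 size factors, 0.0156 without the filter, 0.0260 and 0.0392 in DESeq2 with 4 groups and with the groups compared only, 0.0747 in edgeR with those groups, 0.0157 with the replicate block, 0.0294 and 0.0548 after GC correction without and with the block, 0.0728 with the alignment term, 0.0721 with another TMM reference and -0.0218 to 0.0495 without 1 library. RAET1G there was 0.0039 in DESeq2 with the groups compared only, 0.0471 and 0.1094 after GC correction without and with the block, 0.0008 with another TMM reference and -0.3353 to 0.4374 without 1 library. MICB was 0.0026 in edgeR with the groups compared only, and 0.0471 and 0.0537 after GC correction without and with the block. ULBP1 was -0.0083 with the block, -0.1328 and -0.1486 after GC correction without and with it, and -0.1434 to 0.1339 without 1 library. MICA was 0.0018 after GC correction, and without 1 library RAET1E was -0.0236 to 0.2976 and RAET1L -0.3466 to 0.0686. In HCT-8/FU, RAET1G was 0.0641 after GC correction with the block and -0.3293 to 0.1021 without 1 library. In CM of HCT-8 against HCT-8 it was -0.0213 and -0.0242 after GC correction without and with the block and -0.4327 to 0.3393 without 1 library, and RAET1E -0.1614 to 0.2605. The RAET1G difference of the comparisons was -0.6296 to 0.1875 without 1 library. The cause was not tested.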

Other observations

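The genes whose log2 CPM followed a member most closely over the 8 libraries were named by Pearson's r, as a description over libraries that share depth and base composition. For ULBP1 they were NHSL1 (0.983), IL20RB (0.980) and ERP44 (0.974), for MICB BDH2 (0.977), UBR7 (0.973) and DENND2D (0.969), and for ULBP2 ITGA3 (0.991), RAP1GAP (0.990) and BCAR1 (0.986). MICA was closest to RPA1 (0.955), RAET1L to INPP5A (0.972), and ULBP3 to MICB (0.956). MICB and ULBP1 ran opposite to each other (-0.913).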
